A study of Mus musculus with 5 samples.

Results

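The genes described here are 10 immediate early and heat shock genes: Fos, Fosb, Jun, Junb, Jund, Egr1, Atf3, Ier2, Zfp36 and Hspa1a. They were listed by name and are 10 of the 26189 genes counted in cells of the mouse aortic arch. The cells came from female C57BL/6J wild-type mice and from female Saa3-/- mice, which carry the targeted allele C57BL/6N-Saa3tm1.1(KOMP)Vlcg of serum amyloid A3. The labels call the mice littermates and give their age as 12 weeks. Mice of both genotypes had received 1 injection of the same viral vector and 18 weeks of Western diet. The diet lasted longer than the labelled age, so 12 weeks cannot be the age at which the arches were taken. Arches were digested with enzymes at 37 °C, live CD45+ cells were sorted, and each genotype was given its own sample tag, so there are 2 pools and 1 pool per genotype. How many mice went into either pool is not stated. The series also holds 4 samples of bone-marrow-derived macrophages, which were not analysed here.

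Immediate early genes are transcribed within minutes of a stimulus from factors that are already present, without new protein synthesis. Fos, Fosb, Jun, Junb and Jund encode subunits that pair into the AP-1 transcription factor, Egr1 and Atf3 encode further transcription factors of the early response, Ier2 a nuclear protein induced with them, and Zfp36 (tristetraprolin) an RNA-binding protein that destabilises inflammatory messages. Hspa1a encodes the inducible chaperone HSP70, which heat shock factor 1 switches on when proteins misfold. All of these genes are known to be induced while tissue is digested into single cells, and every cell here went through that digestion, so levels before and after it cannot be told apart.

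The 250 bases before the transcription start are shown 5′ to 3′ as RefSeq gives them on GRCm38.p6. They are given for the 4 of 8 searched genes that hold there a motif of a stimulus- or heat-responsive factor or a TATA box. Capitals mark a TATA box (TATAAA) in Fos, a heat shock element core (GAANNTTC) in Jun and Hspa1a, and a CArG box, the binding motif of serum response factor, in Zfp36.
Fos, chr12:85473640-85473889, plus strand: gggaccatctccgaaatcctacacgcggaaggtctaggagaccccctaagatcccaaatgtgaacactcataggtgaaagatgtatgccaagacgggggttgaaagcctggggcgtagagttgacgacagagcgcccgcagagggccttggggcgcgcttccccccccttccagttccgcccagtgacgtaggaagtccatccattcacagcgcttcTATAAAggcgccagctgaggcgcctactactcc
Jun, chr4:95052223-95052472, minus strand: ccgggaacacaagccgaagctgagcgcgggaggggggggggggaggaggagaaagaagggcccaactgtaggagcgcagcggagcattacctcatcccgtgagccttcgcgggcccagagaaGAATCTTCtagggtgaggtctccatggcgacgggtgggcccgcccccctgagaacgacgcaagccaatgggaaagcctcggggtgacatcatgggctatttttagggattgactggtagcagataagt
Zfp36, chr7:28379229-28379478, minus strand: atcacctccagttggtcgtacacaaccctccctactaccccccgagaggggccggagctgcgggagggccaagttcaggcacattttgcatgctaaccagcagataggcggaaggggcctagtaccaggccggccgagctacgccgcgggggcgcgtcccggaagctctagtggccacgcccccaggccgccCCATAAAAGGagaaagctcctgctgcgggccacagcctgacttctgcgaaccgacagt
Hspa1a, chr17:34972157-34972406, minus strand: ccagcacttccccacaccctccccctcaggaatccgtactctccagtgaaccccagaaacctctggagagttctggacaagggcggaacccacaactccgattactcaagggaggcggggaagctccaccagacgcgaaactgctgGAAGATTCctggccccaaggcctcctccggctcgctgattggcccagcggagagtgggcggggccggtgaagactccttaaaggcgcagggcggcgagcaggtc

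RefSeq promoter entries of 8 of the 10 genes were used, and Ier2 and Egr1 were not searched. Starts are those of RefSeq and can differ from the GENCODE M21 gene starts. The 250 bases of Jund ended at chr8:70697738, upstream of its GENCODE start at 70698949. Jund had 0 matches of any motif and counts among the 8. The windows of Zfp36 and Atf3 lay inside their GENCODE genes. Motifs were searched on both strands of windows of 300 bases, 250 before the start and 50 after it. A heat shock element core was present in 2 of the 8 windows, Jun from position -128 and Hspa1a from position -104 relative to the start, and in 7.86% of 32851 windows of all genes. The CArG box was present in 1 of the 8, Zfp36 from position -58, against 1.63% of all windows. A TATA box began at position -33 in Fos and at the RefSeq start itself in Junb, 2 of the 8 windows against 13.6% of all. The TATA box of Junb lay upstream of the GENCODE M21 start of that gene, at chr8:84978718 on the minus strand. The GC box (GGGCGG), which overlapped the CArG box of Zfp36 by 1 base, was present in 6 of the 8 windows and in 35.7% of all. The full cyclic AMP response element (TGACGTCA) was found in 0 of the 8 windows and in 1.79% of all, and the AP-1 site (TGANTCA) in 0 of the 8 and in 7.81% of all. These matches describe letters only.

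The deposited tables give, for each cell, the molecules counted by unique molecular identifiers for every gene. After removal of cells with over 25% mitochondrial molecules, 833 cells of the pool labelled wild-type and 823 of the pool labelled Saa3-/- remained, with means of 8751 and 6357 molecules per cell. No cell barcode was shared by the pools. Saa3 went against the labels, at 148 CPM in the wild-type pool and 242 CPM in the Saa3-/- pool, where CPM is a gene's molecules per 1000000 molecules of the same cells. Whether the counted end of the transcript lies inside the deleted part is not given in the sources used here. Every direction below is therefore between pools as labelled. Each cell was gated by fixed markers that include none of the 10 genes, which assigned 1599 of 1656 cells. Of all cells, 798 (48.2%) also passed the gate of a second type. Of the 10 genes that led the fibroblast gate, Col2a1, Ibsp, Chad, Prg4 and Col10a1 are genes of cartilage or bone, beside Dcn, Lum, Dpt, Col1a1 and C3, so its cells are called fibroblast-gated after the rule and not named as a type. Ptprc, the gene of CD45, was found in 59.5% and 44.1% of its cells and in 38.4% and 40.6% of smooth muscle-like cells, against at least 89.4% in each of the 5 immune types compared. Fibroblast and smooth muscle genes stood together in these cells: 78.6% and 68.1% of smooth muscle-like cells also passed the fibroblast gate. Levels below are given for the 7 types that had 30 or more cells in both pools, the value of the pool labelled wild-type first and that of the pool labelled Saa3-/- second. There is no replicate pool, so no test between genotypes was possible, and all intervals cover counting error only.

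**Figure D1:**
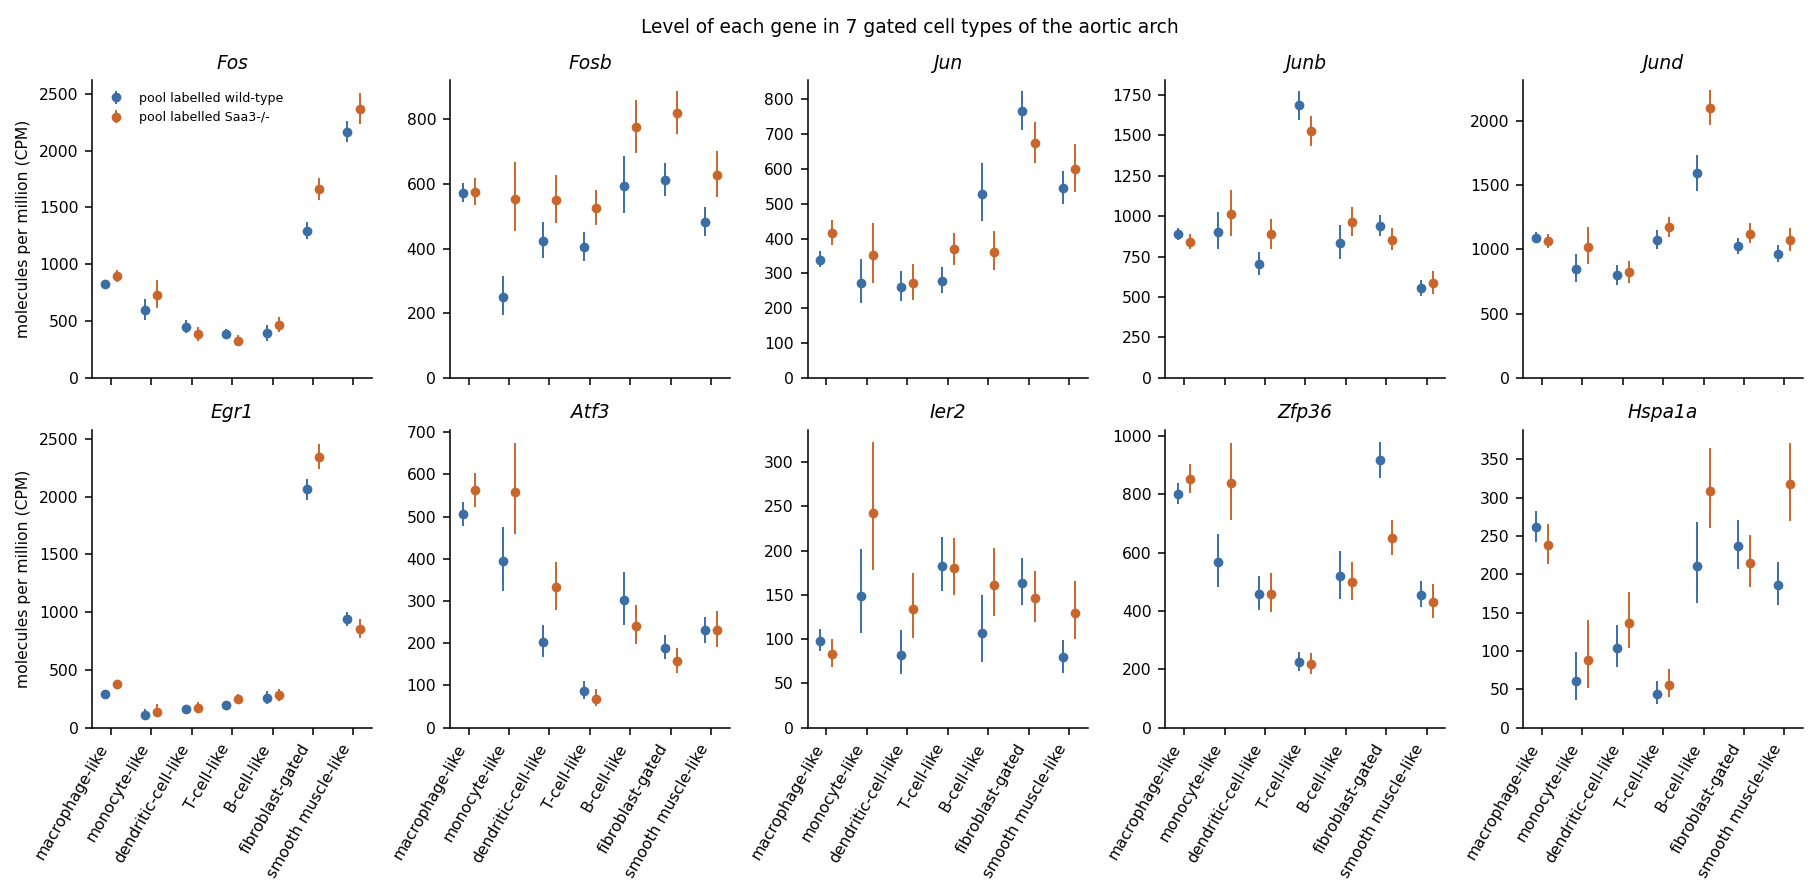
Level of each of the 10 genes (y axis, CPM, separate scale per gene) in 7 gated cell types (x axis) of the pool labelled wild-type (blue) and the pool labelled Saa3-/- (orange). Bars are exact Poisson 95% intervals. Fos and Egr1 were highest in smooth muscle-like and fibroblast-gated cells, Atf3 in macrophage-like cells, Junb in T-cell-like cells and Jund in B-cell-like cells, in both pools.

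Gene positions below are those of GENCODE M21 on GRCm38. Fos (ENSMUSG00000021250.13, chr12:85473890-85477273, plus strand), the partner of the Jun proteins in AP-1, was highest in smooth muscle-like and fibroblast-gated cells. Smooth muscle-like cells had 2167 and 2368 CPM, fibroblast-gated cells 1294 and 1659 CPM and macrophage-like cells 828 and 897 CPM. Monocyte-like cells followed with 593 and 729 CPM. These steps held in both pools, and the intervals of neighbouring types did not overlap from smooth muscle-like to macrophage-like cells. Dendritic-cell-like cells had 448 and 386 CPM, B-cell-like cells 392 and 468 CPM and T-cell-like cells 388 and 328 CPM, and neighbours among these 3 had overlapping intervals. In the pool labelled wild-type the interval of smooth muscle-like cells was 2074 to 2264 CPM and that of T-cell-like cells 346 to 434 CPM. The highest type exceeded the lowest by 5.58- and 7.23-fold. With every cell thinned to 2000 molecules, a Fos molecule was found in 78.3% of smooth muscle-like and 39.0% of T-cell-like cells.

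Fosb (ENSMUSG00000003545.3, chr7:19302696-19310051, minus strand), which also pairs with Jun proteins, varied less between types. Fibroblast-gated cells had 612 and 818 CPM, B-cell-like cells 594 and 775 CPM, macrophage-like cells 573 and 575 CPM and smooth muscle-like cells 483 and 629 CPM. Dendritic-cell-like cells had 425 and 549.6 CPM, T-cell-like cells 404 and 526 CPM and monocyte-like cells 249.7 and 553 CPM. Fibroblast-gated and B-cell-like cells led in both pools with overlapping intervals. In the fibroblast-gated cells of the pool labelled Saa3-/-, few cells held most of the Fosb molecules, as given with the ratios below. The intervals do not cover such spread between cells. The lowest type was the monocyte-like one in the pool labelled wild-type and the T-cell-like one in the pool labelled Saa3-/-, and the span between highest and lowest type was 2.45- and 1.56-fold. The highest Fosb of any type with at least 10 cells in each pool was in type 2 innate lymphoid-like cells (35 and 13 cells), at 1775 and 1947 CPM.

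Jun (ENSMUSG00000052684.4, chr4:95049034-95052222, minus strand) was highest in fibroblast-gated cells, at 766 and 674 CPM, followed by smooth muscle-like cells at 545 and 599 CPM. B-cell-like cells had 529 and 362 CPM and thus stood near smooth muscle-like cells in the pool labelled wild-type and among the lower types in the pool labelled Saa3-/-. Macrophage-like cells had 339 and 416 CPM, T-cell-like cells 279 and 369 CPM, monocyte-like cells 271 and 351 CPM and dendritic-cell-like cells 259.8 and 271 CPM. The last 3 did not differ beyond their intervals within the pool labelled wild-type, and the dendritic-cell-like cells were lowest in both pools.

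Junb (ENSMUSG00000052837.6, chr8:84974484-84978718, minus strand), an AP-1 subunit that can restrain the activity of Jun, had another order, with T-cell-like cells on top. They had 1685 and 1525 CPM, and their interval did not overlap that of the next type in either pool. Smooth muscle-like cells were lowest at 555 and 587 CPM. The 5 types between them lay from 704 to 941 CPM in the pool labelled wild-type and from 843 to 1013 CPM in the pool labelled Saa3-/-, with overlapping intervals between neighbours. Among T cell subsets, gamma-delta cells had 2401 and 2486 CPM and cytotoxic cells 1211 and 1377 CPM. Type 2 innate lymphoid-like cells had the highest Junb of all gates with at least 10 cells in each pool, 3822 and 3959 CPM, and at 2000 molecules per cell 100.0% of their 48 cells held a Junb molecule, where smooth muscle-like cells had 53.1%.

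Jund (ENSMUSG00000071076.6, chr8:70698949-70700616, plus strand), the Jun member with the steadiest expression in many tissues, was found in most cells of each of the 7 types at equal depth. B-cell-like cells were highest at 1593 and 2105 CPM, above all others in both pools. The other 6 types lay between 799 and 1091 CPM in the pool labelled wild-type and between 821 and 1173 CPM in the pool labelled Saa3-/-, and neighbours overlapped. At 2000 molecules per cell the share of cells with a Jund molecule ran from 73.0% in dendritic-cell-like to 94.9% in B-cell-like cells.

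Egr1, a zinc finger factor of the early growth response, differed most between types. Fibroblast-gated cells had 2062 and 2344 CPM and smooth muscle-like cells 941 and 856 CPM, and both were separated from all types below by intervals that did not overlap. Macrophage-like cells had 295 and 379 CPM, B-cell-like cells 256 and 280.5 CPM, T-cell-like cells 200.3 and 248 CPM, dendritic-cell-like cells 158 and 173 CPM and monocyte-like cells 112 and 139.5 CPM. In the pool labelled wild-type the interval of fibroblast-gated cells was 1971 to 2157 CPM and that of monocyte-like cells 76.2 to 159 CPM. The order of the 7 types was the same in both pools, and the span from highest to lowest was 18.4- and 16.8-fold. An Egr1 molecule was found in 81.8% of fibroblast-gated and 24.6% of monocyte-like cells at 2000 molecules per cell.

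Atf3 (ENSMUSG00000026628.13, chr1:191170296-191218039, minus strand), a stress-induced factor that restrains inflammatory transcription in macrophages, was highest in macrophage-like and monocyte-like cells. Macrophage-like cells had 506 and 562 CPM and monocyte-like cells 394 and 558 CPM. T-cell-like cells were lowest at 86.4 and 68.9 CPM, below every other type by intervals that did not overlap. Dendritic-cell-like cells had 202 and 332 CPM, B-cell-like cells 302 and 241 CPM, smooth muscle-like cells 230.3 and 231 CPM and fibroblast-gated cells 189 and 157 CPM. The span was 5.86- and 8.15-fold. In the pool labelled wild-type the interval of T-cell-like cells was 67.2 to 109 CPM, against 479 to 534 CPM in macrophage-like cells. At equal depth 61.5% of monocyte-like, 52.3% of macrophage-like and 13.2% of T-cell-like cells held an Atf3 molecule.

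Ier2 (ENSMUSG00000053560.4, chr8:84661331-84662852, minus strand) had few molecules, and no 2 neighbouring types were separated. T-cell-like cells had 183 and 180.0 CPM, fibroblast-gated cells 163 and 146 CPM, monocyte-like cells 148 and 243 CPM and B-cell-like cells 107 and 161 CPM. Macrophage-like cells had 98.2 and 83.5 CPM, dendritic-cell-like cells 82.4 and 134 CPM and smooth muscle-like cells 79.3 and 129 CPM. All neighbours had overlapping intervals in both pools, and the highest type was the T-cell-like one in the pool labelled wild-type and the monocyte-like one in the pool labelled Saa3-/-.

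Zfp36 (ENSMUSG00000044786.6, chr7:28376784-28380253, minus strand) was high in fibroblast-gated and macrophage-like cells and low in T-cell-like cells. Fibroblast-gated cells had 916 and 649 CPM, macrophage-like cells 802 and 853 CPM and monocyte-like cells 568 and 837 CPM. The fibroblast-gated cells ranked highest in the pool labelled wild-type and behind macrophage-like and monocyte-like cells in the pool labelled Saa3-/-. B-cell-like cells had 519 and 499 CPM, dendritic-cell-like cells 459 and 459 CPM and smooth muscle-like cells 455 and 431 CPM, with overlapping intervals. T-cell-like cells had 224 and 218 CPM, below every other type in both pools, and the span was 4.09- and 3.91-fold.

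Hspa1a (ENSMUSG00000091971.3, chr17:34969190-34972156, minus strand) was highest in macrophage-like, fibroblast-gated, B-cell-like and smooth muscle-like cells, in no common order. Macrophage-like cells had 262 and 239 CPM, fibroblast-gated cells 238 and 215 CPM, B-cell-like cells 211 and 309 CPM and smooth muscle-like cells 186 and 318 CPM. A gap separated these from dendritic-cell-like cells at 104 and 137 CPM, monocyte-like cells at 61.5 and 87.8 CPM and T-cell-like cells at 43.8 and 56.3 CPM. Among B-cell-like cells, few cells held most of the Hspa1a molecules in both pools, as given with the ratios below. Within macrophage-like cells, those gated as resident-type by Lyve1, F13a1, Folr2, Cbr2, Mrc1 and Pf4 had 357 and 325 CPM. Those gated as lipid-laden by Trem2, Gpnmb, Spp1, Cd9, Fabp5 and Lgals3 had 156 and 106 CPM. The remaining macrophage-like cells had 222 and 379 CPM, the highest of the subsets in the pool labelled Saa3-/-. The Hspa1a value is uncertain, because 60.3% of the 50-base stretches of its transcripts also occur in other genes, 58.8% in Hspa1b, and the headers do not say how such reads were counted. Hspa1b itself had 231 and 298 CPM in macrophage-like and 105 and 88.6 CPM in T-cell-like cells.

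Annotated genes on the opposite strand overlap 6 of the 10 genes in GENCODE M21: Junos overlaps Jun, Prdx2 overlaps Junb over 351 bases, Gm11175 overlaps Jund, Gm24748 overlaps Atf3, Gm44710 overlaps Zfp36 and Gm20481 overlaps Hspa1a over 2225 bases. Whether strand was used in counting is not given in the sources used here, so reads of these pairs could be assigned to either gene.

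**Figure D2:**
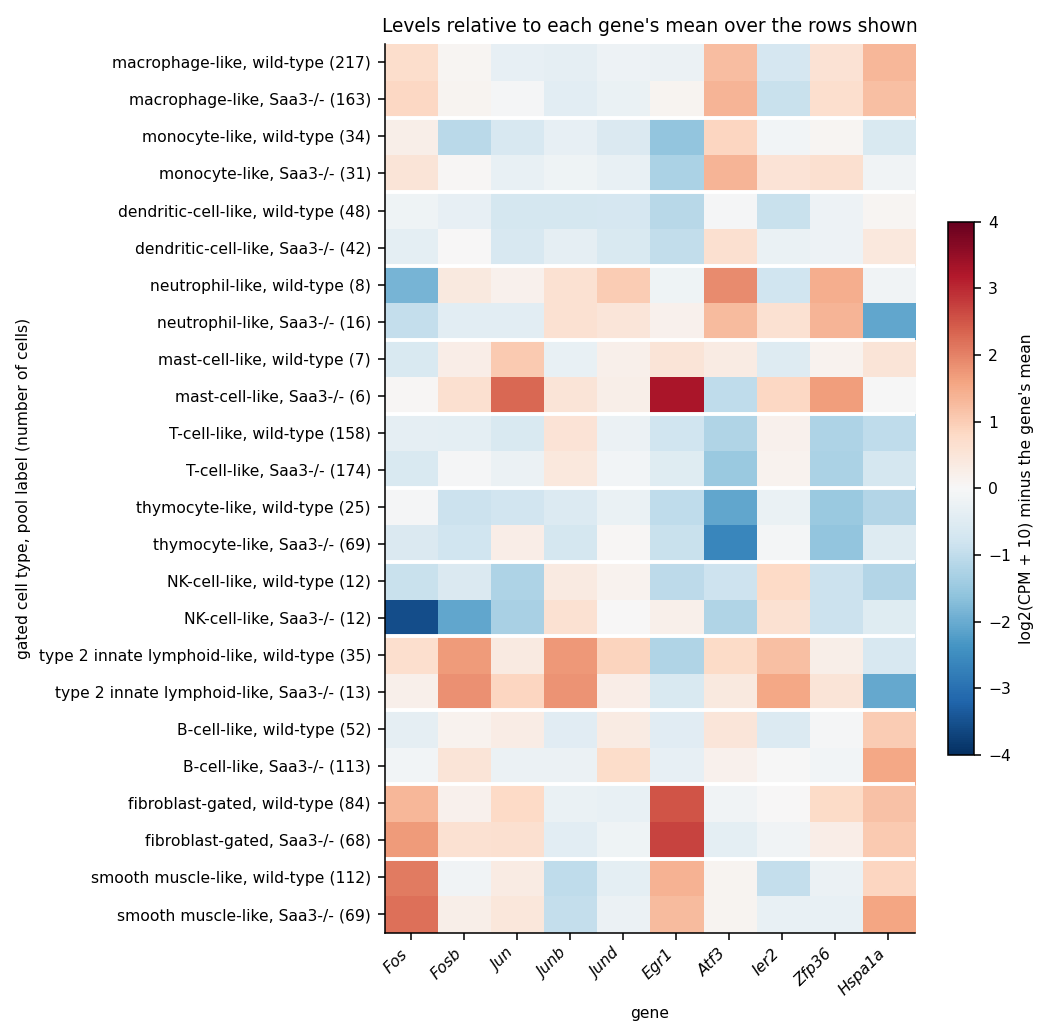
Level of each gene (columns) in each gated type and pool (rows, number of cells in brackets) as log2(CPM + 10) minus the gene's mean over the rows shown (colour). Fos and Egr1 stand out in fibroblast-gated and smooth muscle-like rows, Atf3 in macrophage-, monocyte- and neutrophil-like rows, and Fosb, Junb and Ier2 in type 2 innate lymphoid-like rows.

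Within macrophage-like cells the subsets differed by gene. Egr1 was higher in resident-type cells (406 and 699 CPM) than in lipid-laden cells (184 and 207 CPM) and in the remaining macrophage-like cells (234 and 325 CPM), with intervals that did not overlap in either pool. Jund was lowest in lipid-laden cells in both pools, 783 and 673 CPM against 1251 and 1550.0 CPM in resident-type cells, again without overlap. Junb differed little, with 885 and 882 CPM in resident-type and 843 and 801 CPM in lipid-laden cells, and its intervals overlapped. Zfp36 had 753 and 1042 CPM in resident-type and 793 and 763 CPM in lipid-laden cells, and Atf3 523 and 717 CPM and 526 and 478 CPM. For these last 2 genes the intervals of resident-type and lipid-laden cells overlapped in the pool labelled wild-type and not in the pool labelled Saa3-/-. The remaining macrophage-like cells had Zfp36 at 885 and 801 CPM and Atf3 at 459 and 537 CPM.

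Among T cell subsets, gamma-delta cells stood above cytotoxic and naive cells in Fos, Junb and Zfp36 in both pools, with intervals that did not overlap. Fos had 519 and 881 CPM in gamma-delta, 298 and 211 CPM in cytotoxic and 297 and 149 CPM in naive cells. Zfp36 had 399 and 440.4 CPM, 177 and 205 CPM and 185 and 116 CPM in the same order. T-cell-like cells outside these subsets had Fos at 538 and 237 CPM, Junb at 2273 and 1725 CPM and Zfp36 at 158 and 189 CPM. In the pool labelled wild-type their Fos was thus not below that of gamma-delta cells. Jun was lowest in cytotoxic cells, at 121 and 244 CPM, against 426 and 334 CPM in naive cells. Atf3 was lowest in naive cells, with 4 and 10 molecules in all.

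The number of the 10 genes found in a cell was counted after thinning each cell to 2000 molecules, which leaves out shallower cells. Fibroblast-gated cells held the most among the 7 types, 5.79 ± 2.04 (SD over 148 cells, 4 left out). Monocyte-like cells held 5.09 ± 1.93 (65 cells, 0 left out), macrophage-like cells 4.96 ± 1.93 (371, 9 left out) and smooth muscle-like cells 4.85 ± 2.10 (175, 6 left out). B-cell-like cells held 4.59 ± 1.88 (157, 8 left out), dendritic-cell-like cells 4.24 ± 1.67 (89, 1 left out) and T-cell-like cells 4.05 ± 1.65 (326, 6 left out). Cells of every type spread widely around these means, and apart from fibroblast-gated against T-cell-like cells the means of any pair of types differed by less than either SD. Without thinning the means were 8.09 genes in fibroblast-gated, 7.67 in macrophage-like and 5.49 in T-cell-like cells, whose median depths differed.

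Between the pools the largest gap in this number among the 7 types was in monocyte-like cells, 4.62 genes per cell in the pool labelled wild-type and 5.61 in the pool labelled Saa3-/-. In fibroblast-gated cells it was 6.05 and 5.46, and in macrophage-like cells 4.98 and 4.94. Cells with none of the 10 genes were rare: over all types they were 0.12% and 1.00% of thinned cells.

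**Figure D3:**
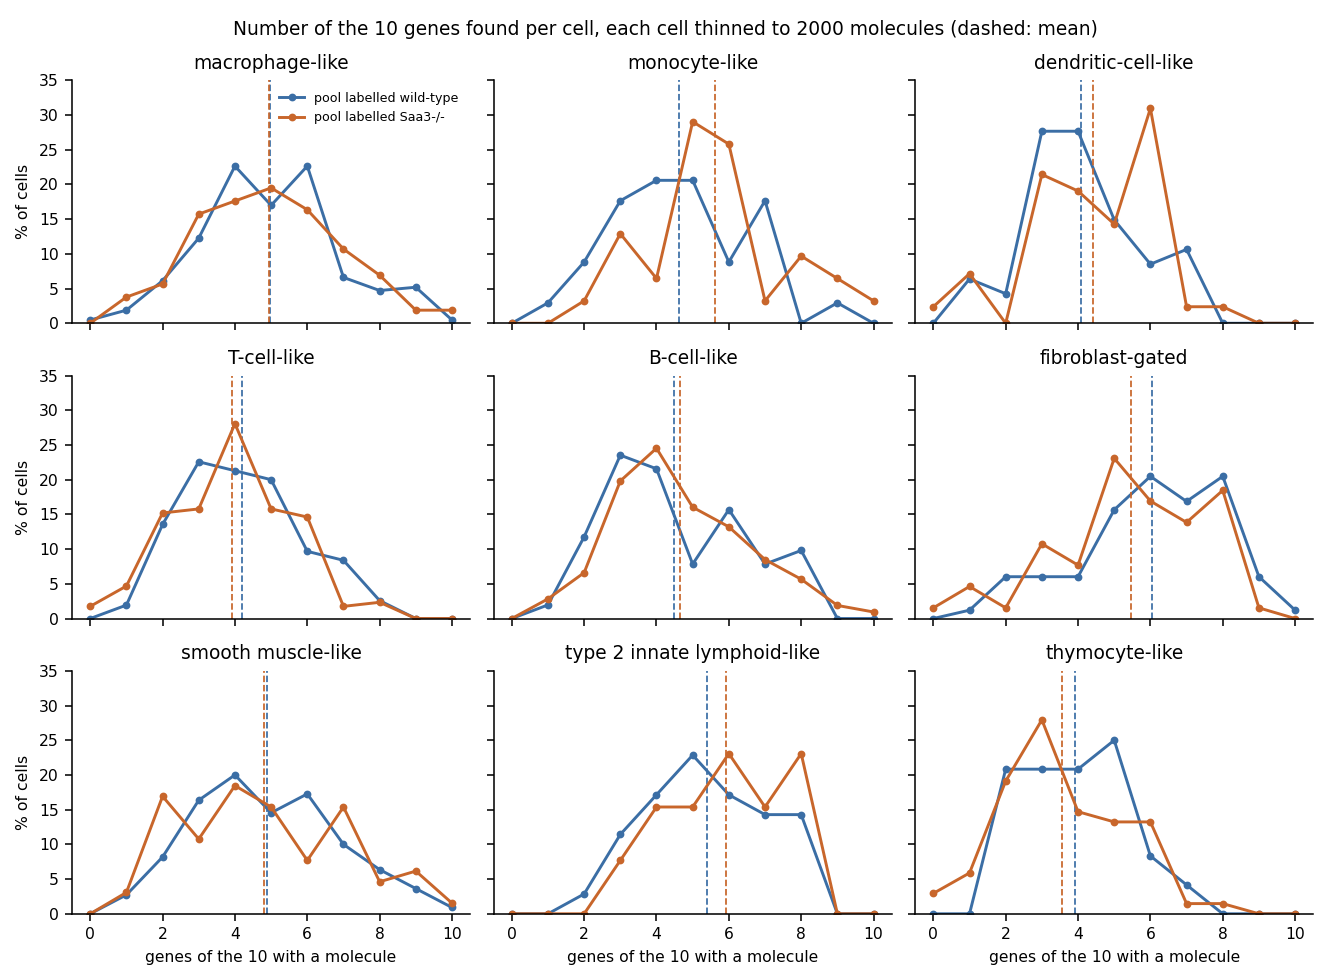
Share of cells (y axis, percent) by the number of the 10 genes with at least 1 molecule (x axis) after thinning each cell to 2000 molecules, in 9 gated types. Blue is the pool labelled wild-type and orange the pool labelled Saa3-/-; dashed lines are means. Fibroblast-gated cells peak at 5 to 8 genes and T-cell-like cells at 3 to 5.

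Within a type, the genes were found together in the same cells to a modest degree. The pair with the highest Pearson r over thinned cells was Fosb with Egr1 in smooth muscle-like cells (0.55 over 175 cells), Egr1 with Zfp36 in fibroblast-gated cells (0.46 over 148) and Fos with Zfp36 in macrophage-like cells (0.43 over 371). In T-cell-like cells no pair exceeded the 0.28 of Fos with Fosb over 326 cells. The median over all 45 pairs ran from 0.07 in dendritic-cell-like to 0.20 in smooth muscle-like cells. These r describe cells that share 2 libraries and sparse counts. The share of a cell's molecules that came from the 10 genes had a Spearman rho between -0.18 and 0.04 with its depth and between -0.22 and -0.02 with its mitochondrial percentage over the 7 types.

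Across the 14 type-by-pool profiles, which share 2 libraries, Egr1 was most like Jun (Pearson r 0.91 of log2(CPM + 10)), then Fos (0.78), and Zfp36 was most like Atf3 (0.78). The profiles of Junb and Fos ran against each other, with r = -0.66. Among the other 8174 genes with at least 200 molecules, Egr1 was most like Lamc1 (0.98), Tgfb3 (0.98) and Vcam1 (0.98), Fos like Dynlt3 (0.97), Mtus1 (0.96) and Gstm1 (0.96), and Jun like Osbpl5 (0.92), Ddr2 (0.92) and Naxd (0.91). Junb was most like Tnfaip3 (0.93), Hexim1 (0.93) and Jak1 (0.93), Jund like Cacna1e (0.91), Klhl24 (0.90) and Mga (0.90), and Fosb like Scmh1 (0.88), Ghdc (0.80) and Mier3 (0.79). Zfp36 was most like Scpep1 (0.97), Lamp2 (0.91) and Rrbp1 (0.88), Atf3 like Ctsh (0.93), Atp6v0b (0.92) and Rhoa (0.91), and Ier2 like Ccng2 (0.84), Slc38a2 (0.82) and Sufu (0.81). Hspa1a was most like Hspa1b (0.91), with which it shares sequence, then Akap7 (0.86) and Rapgef5 (0.85). The mean profile of the 10 genes was most like those of Scfd1 (0.86), Selenbp1 (0.85), Mid1 (0.83), Hspa1b (0.82), Snapin (0.82), Rcan1 (0.78), Mcrip1 (0.78) and Plxdc2 (0.78).

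The pools were then compared by dividing the CPM in the pool labelled Saa3-/- by that in the pool labelled wild-type, given on the log2 scale. Genes with under 50 molecules in the 2 pools together were left out, and 2-fold was the limit. Over all cells 0 of the 10 genes passed it, where 2.34% of 11980 genes did, and their ratios lay between -0.08 (Atf3) and 0.27 (Ier2). Fos stood at 916 and 915 CPM over all cells. These sums mix types whose numbers differed between the pools, so the comparison was made within types.

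Among the 7 types, 1 of 69 ratios passed the limit. It was Fosb in monocyte-like cells, which had 69 molecules in 34 cells and 107 in 31, or 249.7 and 553 CPM, with a log2 ratio of 1.14 (95% counting interval 0.70 to 1.61). This was 1 of 9 genes, where 5.56% of all genes of these cells passed. The same gene in Leiden clusters named monocyte-like (67 and 47 cells) had a ratio of 0.30, and 0.80 with a gate of 2 markers, so the call rested on which cells were counted as monocyte-like. Summed macrophage markers in these cells were 2167 and 1633 CPM, with all 8 above 0, and summed neutrophil markers 163 and 470.2 CPM, with 3 and 2 of 7 at 0, and 58.8% and 71.0% of the cells passed a second gate. Their part in the ratio was not tested.

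In the other 6 types 0 of 10 genes passed the limit, where the share of all genes was 1.83% in macrophage-like, 4.66% in dendritic-cell-like, 2.24% in T-cell-like, 6.03% in B-cell-like, 4.34% in fibroblast-gated and 2.09% in smooth muscle-like cells. The median log2 ratio of the genes lay between -0.14 in fibroblast-gated and 0.37 in monocyte-like cells, where the median of all genes lay between -0.03 and 0.06. In macrophage-like cells Egr1 had 0.36 (95% counting interval 0.20 to 0.53) and Jun 0.29 (0.14 to 0.45), and the intervals of both stayed above 0. Fos in these cells had 0.12 (0.01 to 0.22), a ratio that ranged from -0.30 to 0.22 over 13 alternatives. In T-cell-like cells Jun had 0.40 (0.14 to 0.66), Fosb 0.38 (0.16 to 0.60) and Junb -0.14 (-0.26 to -0.03).

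In monocyte-like cells Zfp36 had 0.56 (0.23 to 0.89) and Atf3 0.50 (0.10 to 0.90), so the 9 ratios there were all above 0. Dendritic-cell-like cells had Atf3 at a log2 ratio of 0.71 (95% counting interval 0.34 to 1.09), with Fosb at 0.37 (0.10 to 0.64) and Fos at -0.21 (-0.51 to 0.08). In B-cell-like cells Jund had 0.40 (0.24 to 0.56), Hspa1a 0.55 (0.12 to 1.00) and Jun -0.54 (-0.87 to -0.22), so Jun lay the other way from the first 2. The Hspa1a ratio was -0.05 to 2.12 over 13 alternatives, and the 5 B-cell-like cells with most Hspa1a held 51 of 65 molecules in the pool labelled wild-type and 81 of 140 in the pool labelled Saa3-/-. Summed macrophage markers in B-cell-like cells were 3662 and 1687 CPM, with all 8 above 0 in both pools, and their part in these ratios was not tested. In fibroblast-gated cells Fos had 0.36 (0.24 to 0.47) and Zfp36 -0.50 (-0.66 to -0.33), in opposite directions. Fosb in these cells had 0.42 (0.25 to 0.59) but ranged from -0.23 to 0.57 over 12 alternatives, and 5 cells of the pool labelled Saa3-/- held 361 of its 605 molecules. Summed macrophage markers in these cells were 964 and 591 CPM, with all 8 above 0, and Ptprc was found in 59.5% and 44.1% of them, whose part was not tested. In smooth muscle-like cells Hspa1a had 0.77 (0.45 to 1.09), which ranged from -0.04 to 0.81 over 12 alternatives, and Ier2 0.70 (0.20 to 1.21).

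**Figure D4:**
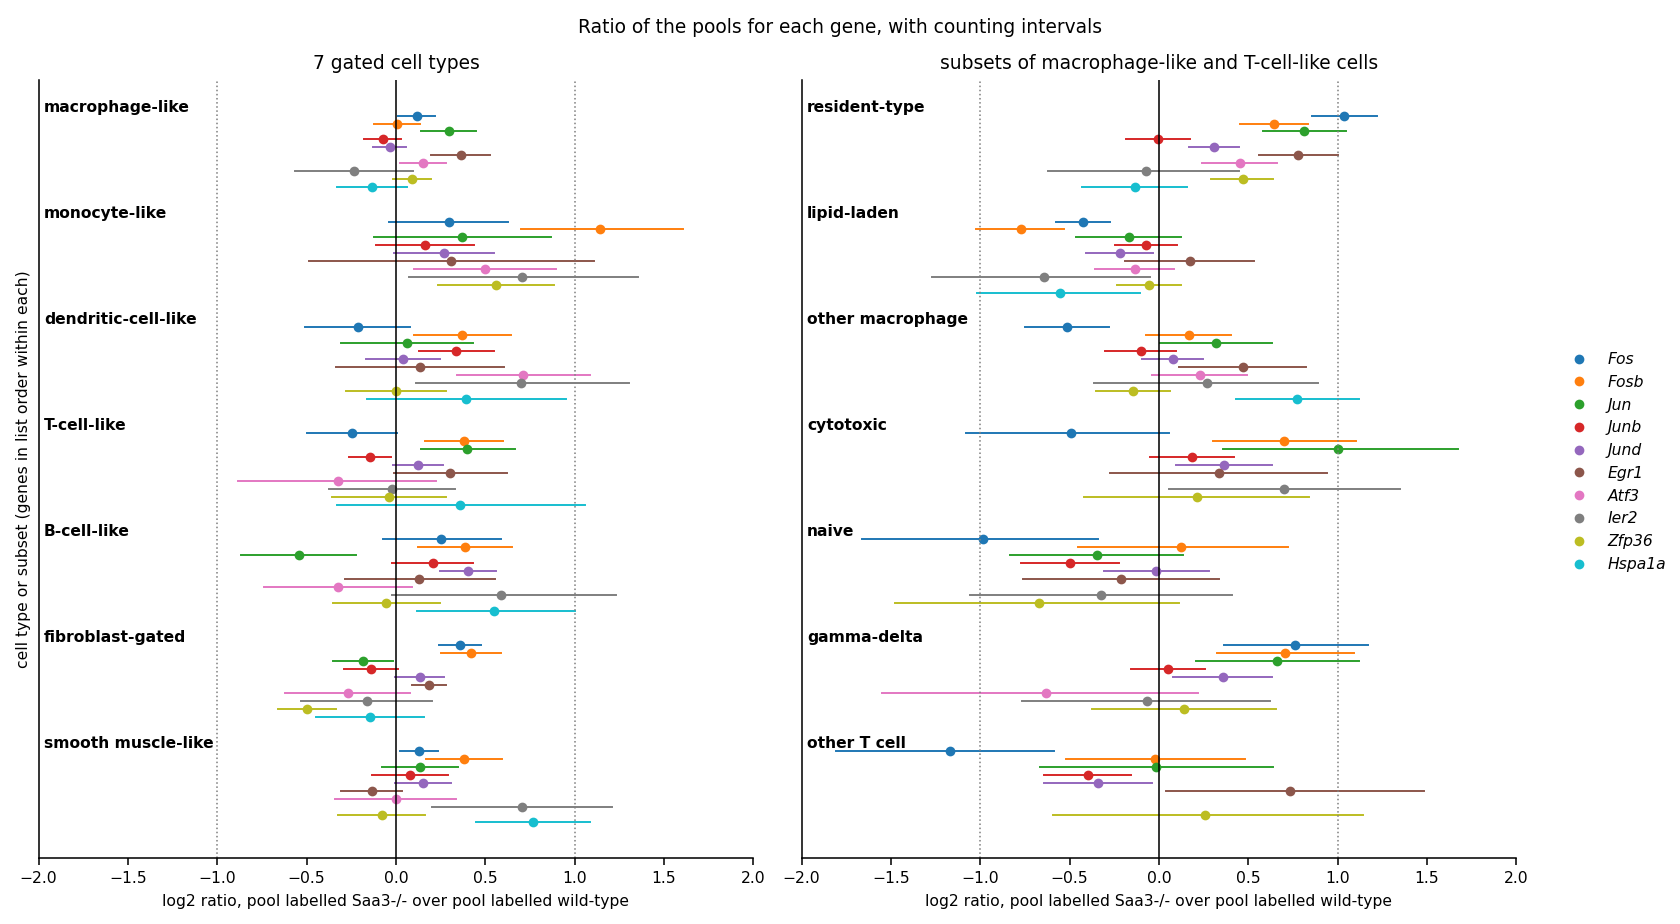
Log2 ratio of each gene (x axis, pool labelled Saa3-/- divided by pool labelled wild-type) in 7 gated types (left) and in 7 subsets of macrophage-like and T-cell-like cells (right), for genes with at least 50 molecules. Bars are exact 95% counting intervals, dotted lines the 2-fold limit. Resident-type macrophages lie mostly to the right of 0 and lipid-laden ones mostly to the left.

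Subsets of macrophage-like cells lay on different sides of a ratio of 1. In resident-type cells Fos had 595 molecules in 93 cells and 435 in 52, or 539 and 1105 CPM, a log2 ratio of 1.04 (95% counting interval 0.86 to 1.22). This was 1 of 10 genes past the limit, where 3.33% of all genes of these cells passed. Egr1 (406 and 699 CPM) had 0.78 (0.56 to 1.00) and Jun (368 and 648 CPM) 0.81 (0.58 to 1.04). The intervals of 7 of the 10 genes lay above 0, the others being Fosb, Zfp36, Atf3 and Jund, against 10.6% of all genes and 13.5% of the genes with at least as many molecules as Ier2, the member with fewest. These shares are not matched for depth, since the 7 genes had at least the 407 and 255 molecules of Jun, against 121 and 41 of Ier2. Those 7 ratios also lay above 0 in each of 13 alternatives, Jund by as little as 0.03. Junb, Ier2 and Hspa1a had intervals that included 0.

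The resident-type Fos ratio rested in large part on few cells. The 5 cells with most Fos held 225 of 435 molecules in the pool labelled Saa3-/- and 163 of 595 in the pool labelled wild-type. Without 5 such cells of each pool the ratio was 0.58. That left out 5 of 52 cells in the pool labelled Saa3-/- and 5 of 93 in the other. Such unequal shares can lower the ratio by themselves. Without the cells that passed a second gate, 41 of 93 and 15 of 52, the Fos ratio was 0.29, while Egr1 was 1.12 and Jun 0.67. At 2000 molecules per cell a Fos molecule was found in 47.8% of resident-type cells of the pool labelled wild-type and 63.5% of the pool labelled Saa3-/-, with overlapping Wilson 95% intervals of 37.8 to 58.0% and 49.9 to 75.2%. TMM scaling moved the median of all genes here by -0.14 and gave Fos 0.89. Median depth was 9470.0 and 6294 molecules, and summed monocyte markers were 382 and 866 CPM, with all 7 listed markers above 0 in both pools. The part of depth and of monocyte RNA in these ratios was not tested.

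Lipid-laden macrophages lay the other way. Fos had 1259 and 938 CPM, a log2 ratio of -0.43 (95% counting interval -0.58 to -0.27), and Fosb 569 and 332 CPM, a ratio of -0.77 (-1.02 to -0.53). No gene passed the limit (0 of 10, against 4.09% of all genes). The intervals of 5 genes, Fos, Fosb, Jund, Ier2 and Hspa1a, lay below 0, against 14.5% of all genes and 19% of those with at least as many molecules as Ier2. These shares are not matched for depth either, since Fos had 905 and 584 molecules and Ier2 67 and 37. Summed monocyte markers were 348 and 366 CPM in these cells. In the pool labelled wild-type lipid-laden cells thus had more Fos than resident-type cells, 1259 against 539 CPM. In the pool labelled Saa3-/- the intervals of the subsets overlapped. Macrophage-like cells in neither subset had 0 of 10 genes past the limit (4.63% of all genes). Their Fos ratio was -0.51 (-0.75 to -0.28) and that of Hspa1a 0.77 (0.43 to 1.12), which ranged from -0.69 to 0.99 over 13 alternatives.

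T-cell-like cells were split by Ccl5, Nkg7 and other cytotoxic genes, by Ccr7, Lef1 and other genes of naive cells, and by Trdc, Tcrg-C1 and other gamma-delta genes. Among these subsets and the rest, 2 of 31 ratios passed the limit. In cytotoxic cells, 1 of 8 genes passed (5.17% of all genes): Jun had 39 molecules in 47 cells and 44 in 44, or 121 and 244 CPM, a ratio of 1.00 (95% counting interval 0.36 to 1.67). Of these molecules, 14 and 28 lay in 5 cells of each pool, and at 2000 molecules per cell the share of cells with Jun was 21.3% and 20.5%. The gate of 2 markers gave 0.51. Median depth was 5101 and 3974 molecules and summed monocyte markers were 472 and 999.7 CPM, with 0 and 3 of 7 at 0. Their part was not tested.

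In T-cell-like cells outside the 3 named subsets, 1 of 7 genes passed (5.61% of all genes): Fos had 75 molecules in 36 cells and 35 in 38, or 538 and 237 CPM, a ratio of -1.17 (95% counting interval -1.81 to -0.59). The 5 cells of each pool with most Fos held 50 and 23 of these molecules, and summed NK cell markers were 21.5 and 209.7 CPM, with 5 and 4 of 7 at 0. Their part was not tested. Naive cells had 0 of 8 genes past the limit (3.52% of all genes), with Fos at 297 and 149 CPM and a ratio of -0.99 (-1.66 to -0.34), and gamma-delta cells 0 of 8 (2.91%), with Fos at 519 and 881 CPM and 0.76 (0.36 to 1.17). Fosb in gamma-delta cells had 587 and 959 CPM and a ratio of 0.70 (0.33 to 1.09), and Jun 422 and 668 CPM and 0.66 (0.21 to 1.12). In naive cells Junb had 1347 and 953 CPM and -0.50 (-0.77 to -0.22). Fos thus lay above 0 in gamma-delta cells and below 0 in naive and other T cells, a difference between subsets that was not tested.

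Of 41 other immediate early genes, 39 had enough molecules in macrophage-like cells. There 0 passed the 2-fold limit (1.83% of all genes), with a median log2 ratio of -0.01 (all genes 0.02). The 4 at the highest level over all cells were Klf6, Pim1, Nfkbia and Ctgf. In macrophage-like cells Klf6, a transcription factor, had 1055 and 1038 CPM, Pim1, a kinase, 952 and 907 CPM, and Nfkbia, the inhibitor of NF-kappaB, 845 and 879 CPM. Ctgf, which encodes a matrix-associated protein, had 2187 and 3459.6 CPM in fibroblast-gated cells. The ratios farthest from 0 in macrophage-like cells were those of Myc at 0.67 (0.08 to 1.25) and Dusp2 at 0.58 (0.17 to 0.99).

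In T-cell-like cells 1 of 35 of these genes passed, where 2.24% of all genes did. It was Ptgs2, the gene of cyclooxygenase 2, which had 126 and 29.5 CPM and a log2 ratio of -2.07 (-2.85 to -1.41). Dusp1, a phosphatase that shuts off MAP kinases, followed with 299 and 156 CPM and -0.94 (-1.28 to -0.61). The median of the list in T-cell-like cells was 0.16. In monocyte-like cells 7 of 28 passed, where 5.56% of all genes did, and the list median was 0.43 (all genes 0.01). Of these, 5 were higher in the pool labelled Saa3-/-, namely Nr4a1, an orphan nuclear receptor, Dusp5, Btg2, and Nfkbia and Tnfaip3, inhibitors of NF-kappaB. Nr4a1 had 536 and 1194 CPM and a ratio of 1.15 (0.85 to 1.46), and Nfkbia 749 and 1539.7 CPM and 1.04 (0.78 to 1.30). Lower were Sgk1 and Ptgs2, the latter with 242 and 36.2 CPM and a ratio of -2.67 (-4.11 to -1.62). The listed genes were not counted again with other gates or clusters, which changed the Fosb call in these cells. Of the 34 and 31 cells, 58.8% and 71.0% passed a second gate, and summed neutrophil markers differed between the pools as given above. Their part in these ratios was not tested.

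Egr3, a relative of Egr1, was the 1 of 41 genes past the limit over all cells, where 2.34% of all genes passed. It had 13.7 and 41.3 CPM and a ratio of 1.58 (1.24 to 1.95). These sums over all cells mix types whose numbers differed between the pools, and the part of cell numbers was not tested. Egr3 was also the 1 of 38 past the limit in fibroblast-gated cells (4.34% of all genes), with 23.7 and 83.9 CPM. In B-cell-like cells it was 1 of 2 past the limit among 31 (6.03% of all genes), with 74.6 and 208 CPM. The other in B-cell-like cells was Rhob, with 503 and 216 CPM and -1.21 (-1.60 to -0.84). In dendritic-cell-like and smooth muscle-like cells 0 of 33 and 0 of 36 passed (4.66% and 2.09% of all genes). None of these listed genes was counted again with other gates. Of the fibroblast-gated cells, 65.5% and 44.1% passed a second gate, and their part was not tested.

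Of 19 other heat shock genes, 17 could be compared in macrophage-like and 16 in T-cell-like cells. In either type 0 passed the limit, where 1.83% and 2.24% of all genes did. The medians of the list were 0.01 and -0.02. The constitutive chaperones stood highest of the list: Hspa8 had 1737 and 1757 CPM, Hspa5 1766 and 1972 CPM, Hsp90ab1 1629.5 and 1458 CPM and Hsp90aa1 701 and 657 CPM in macrophage-like cells. Hspa1b, the near copy of Hspa1a, had a ratio of 0.36 (0.18 to 0.55) in macrophage-like cells, where Hspa1a had -0.13 (-0.33 to 0.06). In fibroblast-gated cells 1 of 17 passed (4.34% of all genes). It was Hspb1, a small heat shock protein, with 588 and 1417 CPM and 1.27 (1.12 to 1.42). The heat shock list was not counted again with other gates. The part of the fibroblast-gated cells that passed a second gate, 65.5% and 44.1%, was not tested. In B-cell-like cells 2 of 13 passed (6.03% of all genes). These were Hsph1, a partner of HSP70, with 101 and 243 CPM and 1.26 (0.69 to 1.90), and Chordc1, with 45.4 and 99.4 CPM. Hspa1a was also higher by its interval in the B-cell-like cells of the pool labelled Saa3-/-, as given above, but its ratio changed side with the choice of cells.

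The integrated stress response, whose factor ATF4 acts upstream of Atf3, had 6 listed genes. Of these, 3 could be compared in macrophage-like and 2 in T-cell-like cells, and 0 passed (1.83% and 2.24% of all genes). Atf4 had 521 and 481 CPM in macrophage-like and 443 and 401 CPM in T-cell-like cells. Ddit3, the gene of CHOP, had 58.7 and 70.3 CPM in macrophage-like cells. Over all cells 1 of 4 passed (2.34% of all genes). It was Asns, which makes asparagine, with 11.0 and 3.44 CPM and a ratio of -1.65 (-2.50 to -0.92). Sums over all cells mix types whose numbers differed between the pools, such as 7 and 0 plasma-cell-like cells. The part of cell numbers in this ratio was not tested.

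Of 8 messages that the Zfp36 protein is known to bind, 6 could be compared in macrophage-like cells. There 0 passed the limit (1.83% of all genes), with a median of 0.27 and all 6 ratios above 0. Zfp36 itself had a ratio of 0.09 (-0.02 to 0.19) in the same cells. Cxcl2 had 968 and 1195 CPM, Cxcl1 227 and 318 CPM, Ccl3 294 and 400.1 CPM and Il1b 218 and 256 CPM. In fibroblast-gated cells, where Zfp36 had -0.50 (-0.66 to -0.33), 2 of 3 passed, where 4.34% of all genes did, and both were lower in the pool labelled Saa3-/-. Macrophage markers and the share of cells with Ptprc were lower there too, as given above. These were Il6, with 267 and 73.0 CPM and -1.86 (-2.32 to -1.44), and Cxcl1, with 629 and 287 CPM and -1.13 (-1.37 to -0.90). In monocyte-like cells, where Zfp36 had 0.56 (0.23 to 0.89), 2 of 3 passed (5.56% of all genes) and both were again lower, Cxcl2 with 427 and 196 CPM and Ccl3 with 199 and 77.5 CPM. In B-cell-like cells 1 of 2 passed, where 6.03% of all genes did: Ccl3, with 305 and 33.1 CPM, beside the lower macrophage markers in these cells of the pool labelled Saa3-/- given above. Over all cells 1 of 7 passed (2.34% of all genes), Il6, with 40.9 and 14.3 CPM. The part of differing cell numbers in that ratio was not tested.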

How the data were processed

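Single-cell RNA was measured in 1 multiplexed aortic arch sample. The gene carried by the injected vector is not reported here. The deposited tables hold molecule counts per gene and cell, made by the authors with the BD Rhapsody pipeline 1.11.1 on GRCm38 and GENCODE M19 with intronic reads, per the file headers. The pool of a cell came from the name of its table, and each cell's sample tag call matched it. From the counts, cells over 25% mitochondrial molecules were dropped and each cell was gated by its highest mean z score over fixed markers, with at least 3 markers found. Pools were compared by summed counts in CPM with exact Poisson and conditional binomial intervals (95%) and 0.5 molecules added to each sum for the ratio. Depth was 7289593 and 5231922 molecules. The 10 genes and the lists were chosen with earlier results of these data known. Other genes were named as the members of fixed lists with the highest level or the ratio farthest from 0, those past the limit where few were, and those of most similar profile. Alternatives changed the gate, clustering, filters, scaling, weighting, thinning, pseudocount and limit. Cells with 2 tags were in neither table (11 of 2401 putative cells), and no other doublet caller was run. The ratio script was tested on sums simulated for macrophage-like cells with counting error only. It called 188 of 188 genes changed by a log2 of 2 and 19 of 7607 unchanged genes. Spread between cells or mice and smaller groups of cells were not simulated. These figures therefore do not give the error rate of the calls above. Python 3.11.15, scipy 1.17.1, pandas 2.3.3 and scanpy 1.11.5 were used.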

Additional observations from a re-analysis of the deposited data

Results flagged for a closer look

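For 8 of the 10 genes the counting interval of the log2 ratio (the pool labelled Saa3-/- relative to the pool labelled wild-type) lay wholly above 0 in one group of cells and wholly below 0 in another, when the 7 types were set against each other or the 7 subsets against each other. The pair farthest apart within the types or within the subsets is given here. The share of all genes that met this rule was not counted, so 8 of 10 cannot be read as particular to these genes. Of all genes, 10.6% had intervals above 0 in resident-type and 14.5% below 0 in lipid-laden macrophages. None of these differences between cell groups was tested, since there is 1 pool per genotype. Fos stood at 1.04 in resident-type macrophages and -1.17 in T-cell-like cells outside the named subsets. Fosb stood at 0.70 in gamma-delta T cells and -0.77 in lipid-laden macrophages. Hspa1a stood at 0.77 in other macrophages and -0.55 in lipid-laden ones, and Ier2 at 0.70 in cytotoxic T cells and -0.64 in lipid-laden macrophages. Among whole types, Jun stood at 0.40 in T-cell-like and -0.54 in B-cell-like cells, Zfp36 at 0.56 in monocyte-like and -0.50 in fibroblast-gated cells, and Junb at 0.34 in dendritic-cell-like and -0.14 in T-cell-like cells. Jund stood at 0.36 in cytotoxic and -0.34 in other T cells.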

How the results depend on the processing

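No paired analysis was possible because the arch sample holds 1 pool per genotype and the macrophage cultures were not analysed here. Of 69 ratios in the 7 types, 1 passed 2-fold, against 0 with a gate of 2 markers, 3 with Leiden clusters, 2 without each pool's 5 highest cells, 2 (of 28 in 3 types) without cells passing 2 gates, and 6 at a 1.5-fold limit. Of 61 in subsets, 3 passed, against 1 with TMM scaling, 1 with thinning, 5 with no minimum of molecules and 18 at 1.5-fold. Without cells passing 2 gates, fibroblast-gated cells held 5.33 and smooth muscle-like cells 5.17 of the 10 genes at 2000 molecules. Thinned to 1000 molecules, the means were 3.49 in macrophage-, 3.22 in monocyte-, 2.71 in dendritic-cell-, 2.72 in T-cell-, 3.31 in B-cell-, 3.47 in smooth muscle-like and 3.99 in fibroblast-gated cells. At 4000 they were 6.51, 6.51, 6.01, 5.61, 6.03, 6.58 and 7.08 in the same order. Fibroblast-gated cells held the most at all 3 depths. These means move with depth by construction, and the cause of the other changes was not tested. The type with the highest level was unchanged in 16 of 20 gene-by-pool orders with each cell weighing the same and in 17 of 20 with Leiden clusters. None of the 4 ratios past 2-fold changed direction in the 10 to 13 alternatives that gave each a value. Ratios that rest on under 50 molecules were not compared, and intervals leave out the spread between mice.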

Other observations

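Types with too few cells for the comparison of pools also differed in these genes. Neutrophil-like cells (8 and 16 cells) had Zfp36 at 1469 and 1399 CPM, Jund at 2582 and 1765 CPM and Atf3 at 801 and 525 CPM, all in sums of 22466 and 62884 molecules. Thymocyte-like cells (25 and 69 cells), which carry Rag1 and Dntt, had Atf3 at 42.5 and 26.3 CPM and Fos at 487 and 335 CPM. Endothelial-like cells (8 and 4 cells) had Fos at 1887 and 1129 CPM and Egr1 at 1177 and 1578 CPM. NK-cell-like cells (12 in each pool) held 21 Fos molecules in the pool labelled wild-type and 2 in the pool labelled Saa3-/-.

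Mast-cell-like cells (7 and 6 cells) had Egr1 at 510.5 and 3471 CPM, and 1 cell of the pool labelled Saa3-/- held 85 of its 106 molecules.

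Type 2 innate lymphoid-like cells (35 and 13 cells), gated by Gata3, Il1rl1 and other markers, held few molecules of the chaperone gene. Of Hspa1a, 9 molecules were counted in the pool labelled wild-type and 1 in the pool labelled Saa3-/-, beside Ier2 at 391 and 491 CPM, Jund at 2378 and 1538 CPM and Fos at 808 and 589 CPM. They held 5.54 ± 1.68 of the 10 genes at 2000 molecules per cell (SD over 48 cells).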
